A study of Mus musculus with 64 samples.

Results

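Antibody genes were followed through whole bone marrow and spleen of scat mice, which have a severe anaemia that alternates between crisis and partial remission. The genes are the heavy, kappa and lambda variable (V) segments and the constant genes of the immunoglobulin loci: symbols beginning with Ighv, Igkv or Iglv, together with Ighm, Ighd, Ighg, Igha, Ighe, Igkc and Iglc. A gene was kept where its mean over the 22 whole-tissue libraries was at least 10 deposited normalised counts, which left 178 of 213 candidates and of 26286 genes in all. They are 9 constant genes (Ighm, Ighg1, Ighg2b, Ighg2c, Ighg3, Igha, Ighe, Igkc and Iglc2), 82 heavy V segments, 84 kappa V segments (1 of them annotated as a pseudogene) and 3 lambda V segments. The members were thus chosen by their mean level in these libraries, so levels are given as a description. Just under the limit lay Igkv18-36 (9.57), Igkv1-99 (9.66) and Ighv1-58 (9.8), and just above it Ighv1-31 (10.2), Igkv14-130 (10.6) and Igkv4-54 (11.4). Ighd, Iglc1, Iglc3 and Iglc4 were not analysed here.

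An antibody is made of paired heavy and light chains. In a developing B cell of the marrow, recombination by the Rag proteins joins 1 V segment to D and J segments at the heavy locus and then 1 V segment to a J segment at a light chain locus, kappa before lambda in most cells. The joined heavy exon is first spliced to the constant gene Ighm, giving IgM, and an activated B cell can later switch to Ighg, Igha or Ighe. Most mature B cells of the mouse are in the spleen and lymph nodes, and plasma cells, the antibody-secreting end stage, hold far more immunoglobulin mRNA than other B cells.

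mRNA was sequenced in 64 libraries from 18 mice, taken from whole tissue and from sorted megakaryocyte-erythroid progenitors (MEP) and stem and myeloid progenitors (SMP: Lin-Sca-Kit+CD34+, CD16_32lo cells) of bone marrow and spleen. All mice are of the strain CbyJ.Cby-Rasa3(scat)/Llp, a BALB background, either homozygous for the scat allele of Rasa3 (scat/scat), which encodes a GTPase-activating protein of Ras and Rap1, or wild type (+/+, WT). Whole tissue was available from 3 scat/scat mice in crisis (labelled critical, 23 to 28 days old, both tissues of each mouse), 3 young WT bone marrows and 3 young WT spleens (23 to 28 days, 2 mice with both tissues), and 3 scat/scat mice in partial remission (32, 33 and 58 days, both tissues). Older WT mice gave 2 bone marrows (58 and 32 days) and 1 spleen (32 days). The mutation is constitutive, so every cell type of a scat/scat mouse carries it, and remission differs from crisis in age as well as in state. Remission was assigned by the submitters from red cell measures lying between WT and crisis.

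The whole-tissue libraries held 46.57 to 107.6 M normalised counts. Values below were rescaled to a common median ratio over the 12829 genes above 0 in every library, and a log2 change is a difference of log2(rescaled count + 1) with its standard error (SE) and a Benjamini-Hochberg adjusted p from limma, called under 0.05. Several libraries stood apart in these genes. Crisis bone marrow replicate 1 (mouse 2608) was the highest of the 3 crisis bone marrows for 159 of the 178 genes, and remission spleen replicate 1 (mouse 2726, 58 days) was the highest of the 3 remission spleens for 176 of 178. Older WT bone marrow replicate 1 (mouse 27265, 58 days) lay below the young WT mean for 162 of 178. The whole spleen library of mouse 27265 is labelled scat/scat in remission while the bone marrow of that mouse is labelled +/+, so it was placed in no group. The B cell list of 13 genes (Cd79a, Cd79b and others), which defines the cells that transcribe these loci, was detected in every whole-tissue group.

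The V segments differ most where they encode the antigen contact loops, and the 3′ end of the germline segment holds the codon of the conserved cysteine after which the third loop, CDR3, begins. The last 60 bases of some segments are printed below on the coding strand, from GENCODE M21 on GRCm38, a C57BL/6J sequence, with that cysteine codon in capitals. The first set holds heavy, kappa and lambda segments of high level. In it Igkv1-110 and Igkv1-117, and Iglv1 and Iglv2, show how alike close relatives can be.
Ighv9-3 (chr12:114140692-114140751, minus strand): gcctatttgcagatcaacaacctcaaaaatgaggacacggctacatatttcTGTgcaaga
Ighv5-6 (chr12:113625506-113625565, minus strand): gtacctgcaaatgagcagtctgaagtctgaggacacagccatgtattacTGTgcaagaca
Igkv1-110 (chr6:68271208-68271267, plus strand): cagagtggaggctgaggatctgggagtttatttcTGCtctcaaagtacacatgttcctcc
Igkv1-117 (chr6:68121768-68121827, plus strand): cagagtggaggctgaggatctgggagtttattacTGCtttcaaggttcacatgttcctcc
Igkv1-88 (chr6:68862265-68862324, minus strand): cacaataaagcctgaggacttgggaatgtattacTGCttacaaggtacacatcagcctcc
Iglv1 (chr16:19085017-19085076, minus strand): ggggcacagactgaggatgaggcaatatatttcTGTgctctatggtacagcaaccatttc
Iglv2 (chr16:19260401-19260460, minus strand): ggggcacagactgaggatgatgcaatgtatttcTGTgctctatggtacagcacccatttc

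The second set holds 4 segments picked after their values were seen, because they behave unlike the rest of their class in 1 tissue, in sorted cells or in single libraries.
Ighv1-85 (chr12:116000028-116000087, minus strand): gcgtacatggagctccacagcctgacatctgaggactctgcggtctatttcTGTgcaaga
Ighv7-1 (chr12:113896408-113896467, minus strand): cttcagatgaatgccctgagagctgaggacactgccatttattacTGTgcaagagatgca
Igkv15-103 (chr6:68437866-68437925, plus strand): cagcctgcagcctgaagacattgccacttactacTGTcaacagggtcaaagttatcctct
Igkv7-33 (chr6:70058632-70058691, minus strand): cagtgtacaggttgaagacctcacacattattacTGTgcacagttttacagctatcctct

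Close relatives limit what a single segment's value can say. Over their transcripts, the median identity of a member to its nearest relative among the members was 91.7% for heavy V and 91.2% for kappa V, and 17 of 82 heavy and 16 of 84 kappa segments had a relative at 95% or more. Igkv1-110 and Igkv1-117 are 96.8% identical, Iglv1 and Iglv2 90.8%, and Ighv1-85 is 94.0% identical to Ighv1-84. Igkv15-103 and Igkv7-33 have no close relative among the members, the nearest being at 72.0% and 79.6%. The reads came from mice of a BALB background and the segments are those of the C57BL/6J reference, so a value counts the reads given to that reference segment, and reads of near-identical segments may have been split between them. The annotated heavy V members span chr12:113578504-116000461, the kappa V members chr6:67555497-70704177 and the lambda V members chr16:19085017-19260859. Strand use in counting is not given in the sources used here, and 5 members overlap another annotated gene, among them Igkc (Gm30211), Iglc2 (Iglj2) and Iglv1 (2010309G21Rik, antisense).

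Per kilobase of exon and averaged over the 21 assigned whole-tissue libraries, Ighm was the highest of the 178 genes at 63999 rescaled counts per kb, followed by Igkc at 30135 and Iglc2 at 10440. The switched constant genes were far lower, with Igha at 320.7 per kb, Ighg3 at 98.31, Ighg1 at 91.09, Ighg2b at 63.17, Ighg2c at 61.44 and Ighe at 14.81. Among V segments, on the same scale, Iglv1 (3221), Igkv1-110 (2560), Igkv1-135 (2517) and Ighv9-3 (2366) led. IgM was thus the main heavy chain transcript in both tissues, and the plot of the 9 constant genes shows how each one varied between libraries.

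**Figure D1:**
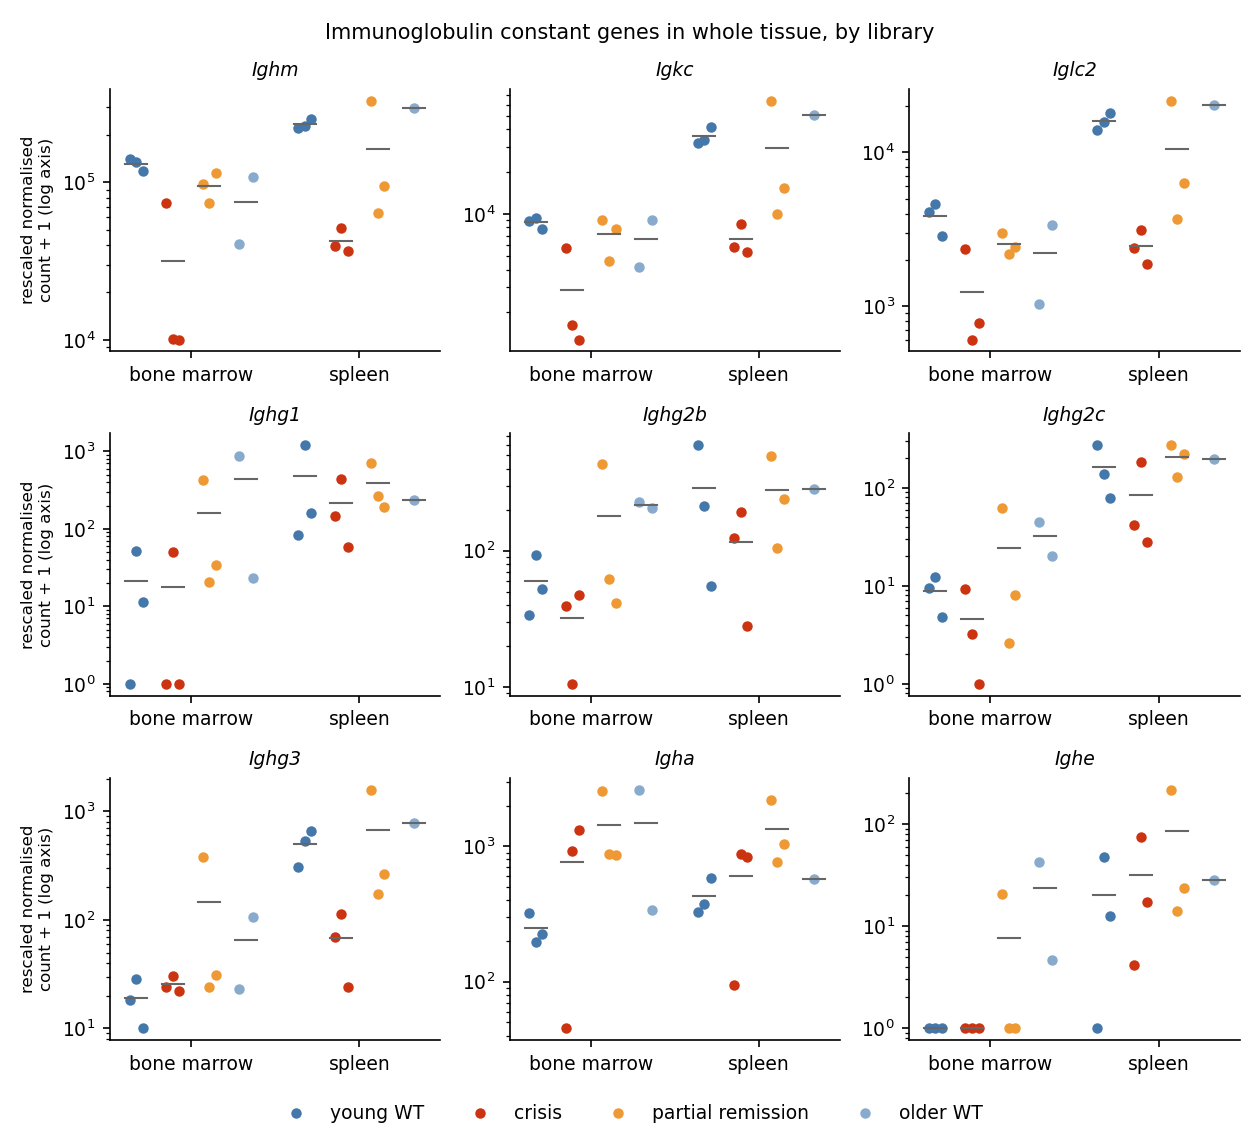
Rescaled normalised count + 1 (log axis) of the 9 constant genes in every assigned whole-tissue library, by tissue and group; points are libraries and bars are group means. Ighm, Igkc and Iglc2 of crisis spleen all lie under the young WT spleen values, while Igha of crisis runs from 44.35 to 1319 in bone marrow and from 94.23 to 870.2 in spleen.

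In whole spleen, nearly the whole antibody repertoire was lower in crisis than in young WT. Of the 178 genes 176 passed the filter on low values, and 153 of these were lower and 0 higher, where 46.6% of all 16094 genes tested were called and 24.3% were lower. The median log2 change of the members tested was -2.39, against -0.06 for all genes. A member with high WT and near-zero crisis values passes that filter through WT alone, so the fit without the filter is given too: it called 154 of all 178 lower, and 33.1% of all 22452 genes, 17.9% lower. Every crisis spleen lay under every young WT spleen for 165 of the 176, which 30% of all genes did. In tissue RNA, fewer B cells and less immunoglobulin RNA per B cell cannot be told apart.

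The constant genes of IgM and of both light chains fell. Ighm, the mu heavy chain, stood at 221870, 227694 and 252459 rescaled counts in the young WT spleens and at 39174, 51651 and 36708 in crisis. The groups did not overlap, and the log2 change was -2.48 ± 0.18 (limma adjusted p = 2.27e-05), a 5.56-fold difference. Igkc, the only kappa constant gene, went from 32179, 33578 and 41428 in WT to 5831, 8538 and 5362 in crisis. Its change of -2.46 ± 0.20 (limma adjusted p = 3.42e-05) was close in size to that of Ighm. Iglc2, a lambda constant gene, went from 13917, 15635 and 18105 to 2393, 3121 and 1868, a change of -2.71 ± 0.19 (limma adjusted p = 2.12e-05).

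Switched isotypes did not move together. Ighg3, an IgG subclass made in responses to polysaccharides, stood at 303.2, 533.2 and 659.1 in WT spleen and at 68.77, 111.2 and 23.29 in crisis. It fell by 3.05 ± 0.56 on the log2 scale (limma adjusted p = 0.00234). Igha, the heavy chain of the mucosal antibody IgA, stood at 326.3, 372 and 587 in WT and at 94.23, 870.2 and 829.6 in crisis. Crisis replicate 1 lay below all WT spleens and replicates 2 and 3 above all of them, and the log2 change was -0.02 ± 0.77 (limma adjusted p = 0.986). Without crisis replicate 1, the log2 change of Igha was 1.03 (limma adjusted p = 0.0101), and without replicate 2 or 3 it was -0.56 or -0.53 (0.604 and 0.657). Ighg1 (log2 change -0.70, limma adjusted p = 0.604), Ighg2b (-1.13, 0.35), Ighg2c (-1.26, 0.188) and Ighe (1.05, 0.602) did not pass the test.

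The V segments of all 3 loci fell in spleen by similar amounts: 68 of 80 heavy V tested (median log2 change -2.32), 78 of 84 kappa V (-2.43) and 3 of 3 lambda V (-2.50). Igkv1-110, the kappa segment with the highest mean, stood at 2507, 3018 and 2834 in WT and at 340.3, 691.4 and 509.4 in crisis (log2 change -2.49 ± 0.25, limma adjusted p = 0.0001). Iglv1, the lambda segment with the highest mean, stood at 3108, 4228 and 3337 in WT and at 521.9, 985.2 and 471.3 in crisis (-2.50 ± 0.27, limma adjusted p = 0.000184). Ighv9-3, the heavy segment with the highest mean, stood at 1331, 1676 and 1598 in WT and at 310.4, 501.7 and 269.6 in crisis (-2.13 ± 0.25, limma adjusted p = 0.00024). In each of these 3 segments crisis replicate 2 was the highest crisis spleen, as it was for 114 of the 178 genes.

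Some segments fell further than their class. Igkv1-88 stood at 2605, 2839 and 1763 in WT spleen and at 291.4, 169.8 and 123.2 in crisis, a 12.8-fold difference (log2 change -3.68 ± 0.33, limma adjusted p = 6.45e-05). Ighv1-61 went from 92.22, 73.02 and 94.03 to 0, 7.71 and 1.57 (-4.95, limma adjusted p = 0.00188). It is 98.6% identical to Ighv1-52, which was 2.66-fold lower in crisis spleen, and reads may have been split between them. Ighv1-59 and Igkv8-18, the other two of the 3 lowest fitted changes, were listed at 0 in all 3 crisis spleens, against 25.34 to 44.22 and 12.99 to 39.73 in WT, so no fold is given. The called segments with the smallest changes were Igkv8-27 (-1.30, limma adjusted p = 0.0304), Igkv4-70 (-1.51, 0.00889) and Ighv2-6 (-1.56, 0.00353). By family, for families of at least 3 members, the medians of the tested segments ran from -1.74 for Ighv9 (4 segments) to -3.20 for Igkv14 (4 segments) and -3.16 for Igkv3 (7 segments, the kappa family nearest to Igkc).

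Genes of B cells and of antibody secretion were lower beside the immunoglobulin genes in crisis spleen. All 13 genes of the B cell list fell (median log2 change -3.48), and their summed level was 11801 to 24162 in crisis and 162092 to 195975 in young WT. Of the 14 plasma cell and secretion genes 11 fell, among them Jchain, the joining chain of IgM and IgA polymers (-2.36, limma adjusted p = 9.01e-05), and Derl3, a factor of endoplasmic reticulum degradation (-3.55, 0.00277). Xbp1, the secretory transcription factor (-0.17, limma adjusted p = 0.627), Ell2 (0.69, 0.136) and Fkbp11 (-0.75, 0.215) did not pass. Of 12 tested genes of V(D)J recombination and class switching 7 fell, including the surrogate light chain genes Igll1 (-4.06, limma adjusted p = 0.0276) and Vpreb1 (-4.22, 0.0122), and Ung, the uracil glycosylase, rose (0.77, 0.00653). All 6 T cell genes fell as well (median -3.20) and 3 of 5 erythroid genes rose. The part of these cell proportions in the immunoglobulin changes was not tested.

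In whole bone marrow the same direction was seen with far more spread between the crisis mice. Of the 178 genes 159 passed the filter, and 29 of these were lower and 0 higher in crisis, where 9.52% of all 16212 genes tested were called and 4.4% were lower. The median log2 change was -2.17 for the members tested and 0.04 for all genes, and 156 of 159 changes were negative. Without the filter 35 of 177 were called, all lower, and 6.12% of all 22840 genes. At an unadjusted p under 0.05 there were 128 members (26.7% of all genes), and for 117 every crisis marrow lay under every WT marrow (17.2% of all genes).

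The number called rested on single libraries, above all on that of mouse 2608. Measured against the young WT mean of the same tissue, the median over all 178 genes was -0.78 on the log2 scale in crisis bone marrow replicate 1 and -2.80 and -2.81 in replicates 2 and 3. The B cell list moved with it, with a median of -0.91 in replicate 1 and of -4.07 and -3.35 in replicates 2 and 3. Without replicate 1, limma called 130 of 159 members, 129 of them lower, and 19.2% of all 16223 genes. Without replicate 3 it called 2 members and 2.8% of all genes. With crisis replicate 2, or any 1 of the 3 young WT marrows, left out, it called 0 members. Of all genes it called 1.3% without crisis replicate 2, and 1.82, 5.08 and 0.789% without young WT replicates 1 to 3. In spleen the crisis mice were alike in the median over the 178 genes (-2.47, -2.07 and -2.53 in replicates 1 to 3). Their B cell list medians were further apart and in another order, at -2.86, -3.1 and -4.09. Leaving out single spleen libraries gave 121 to 153 members called, with 34.7 to 48.7% of all genes called.

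**Figure D2:**
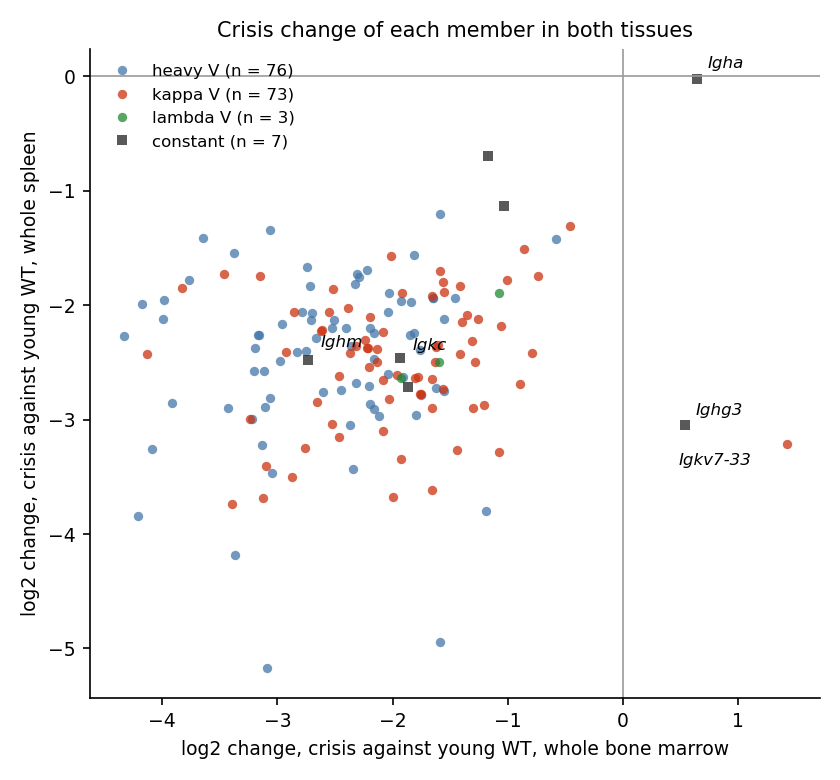
Log2 change in crisis against young WT in whole bone marrow (x) and whole spleen (y) for each member tested in both tissues: 76 heavy V, 73 kappa V, 3 lambda V and 7 constant genes. Nearly all points lie below 0 on both axes; Igha and Ighg3 lie to the right of 0 in bone marrow, and so does Igkv7-33 among the V segments.

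No constant gene passed the test in bone marrow. Ighm stood at 139795, 135408 and 117410 rescaled counts in young WT marrow and at 74475, 10050 and 10039 in crisis (log2 change -2.74 ± 0.84, limma adjusted p = 0.113). The groups did not overlap, but crisis replicate 1 stood far above the other two crisis marrows. Igkc went from 8930, 9395 and 7754 to 5711, 1608 and 1270 (-1.93 ± 0.56, limma adjusted p = 0.0897). Iglc2 went from 4072, 4582 and 2863 to 2341, 606.3 and 776.8 (-1.86 ± 0.51, limma adjusted p = 0.0741). All 3 genes thus showed the same order, with every crisis value below WT and mouse 2608 nearest to it.

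Igha ran against Ighm in the marrow of the same mice. It stood at 322.2, 196.8 and 224.5 in young WT and at 44.35, 916.3 and 1319 in crisis (log2 change 0.64 ± 1.35, limma adjusted p = 0.804). Crisis replicate 1 was below every WT marrow, and replicates 2 and 3, the 2 marrows lowest in Ighm, were above every one. Without replicate 1, the log2 change of Igha was 2.18 (limma adjusted p = 0.00161) and that of Ighm was -3.70 (3.97e-06). Without replicate 2 or 3 that of Igha was 0.01 or -0.25 (limma adjusted p = 0.998 and 0.933). Crisis replicate 1 was 23 days old, replicate 2 was 28 and replicate 3 was 26, and the young WT marrows of 28, 23 and 25 days held 322.2, 196.8 and 224.5 Igha counts. Ighg3 was low in both groups, at 17.21, 27.43 and 9.06 in WT and 22.94, 29.17 and 21.04 in crisis (0.54 ± 0.57, limma adjusted p = 0.591).

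Summed per kb, the switched genes (Ighg1, Ighg2b, Ighg2c, Ighg3, Igha and Ighe) made up 0.197, 0.205 and 0.182% of heavy constant transcripts in young WT marrow and 0.117, 6.65 and 8.90% in crisis. In crisis replicates 2 and 3 Igha was 90.5 and 95.1% of that switched part. Spleen moved less on this scale, from 0.592, 0.842 and 0.468% in WT to 0.941, 2.82 and 1.93% in crisis, with no overlap. These shares carry no test, and they rise where Ighm falls as well as where a switched gene rises.

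Among the V segments of bone marrow 18 of 76 tested heavy V (median log2 change -2.43), 10 of 73 kappa V (-1.96) and 1 of 3 lambda V (-1.60) were lower. Ighv5-6 stood at 954.7, 674.5 and 636.6 in WT and at 303.7, 61 and 64.77 in crisis (-2.79 ± 0.59, limma adjusted p = 0.0322). Igkv1-88 stood at 247.1, 173.2 and 205.7 in WT and at 91.11, 49.1 and 29.21 in crisis (-2.0 ± 0.43, limma adjusted p = 0.0281). Both sets of crisis values lay wholly below WT. Ighv9-3, higher than both in WT marrow, went from 997.2, 831 and 703.4 to 475.9, 65.37 and 65.39 and did not pass the test (-2.71, limma adjusted p = 0.0739).

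The lowest called changes were those of Ighv1-54 (log2 change -4.34, from 63.83 to 126.7 in WT to 0 to 14.84 in crisis), Ighv1-20 (-4.21) and Igkv1-133 (-3.83), with limma adjusted p of 0.0313, 0.0353 and 0.0466. The called segments with the smallest changes were Ighv10-1 (-1.46), Ighv6-6 (-1.62) and Ighv1-67 (-1.75), with limma adjusted p of 0.0436, 0.0339 and 0.0391. The only V segment with a positive change was Igkv7-33 (1.42, limma adjusted p = 0.448), at 3.6, 6.24 and 1.31 in WT and 12.7, 34.31 and 2.04 in crisis. Fewer segments were detected at all in 2 of the crisis marrows: 81, 64 and 69 of the 82 heavy V members were above 0 in crisis replicates 1 to 3 against 82 in each young WT marrow, and 83, 65 and 74 of the 84 kappa V against 83, 84 and 84.

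The genes of V(D)J recombination had larger fitted changes than the V segments in bone marrow and passed no test. Rag1, a subunit of the recombinase (log2 change -5.21, limma adjusted p = 0.172), Igll1 (-5.56, 0.133) and Vpreb2 (-4.60, 0.0555) were among 13 tested, with 0 called and a median of -3.19. Their summed level ran from 42763 to 47858 in young WT and was 4025, 4697 and 23522 in crisis from the lowest to the highest library. B cell genes gave 3 lower of 13 (median -2.79), and their sum was 123177 to 145482 in WT and 15617, 16544 and 74302 in crisis. Plasma cell genes gave 3 lower of 13 (Sdc1 -1.83, Derl3 -2.34 and Tnfrsf13b -1.12), while Jchain did not pass (-0.51, limma adjusted p = 0.156). The T cell genes had a median of 1.25 with 0 of 6 called, and 3 of 5 erythroid genes rose. How far these lists account for the immunoglobulin values was not tested.

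Whether crisis acted unequally on the same gene in spleen and in bone marrow was tested as the difference of the log2 changes in 1 fit of 12 libraries. Of the 178 genes 174 were tested, and 4 had a more negative change in spleen and 0 in bone marrow. Of all genes 18.3% were called, and 12.4% in the direction of those 4. At an unadjusted p under 0.05 there were 12 of the 174 members, where 32.6% of all genes had one. The medians of the difference were 0.22 for heavy V, -0.64 for kappa V and -0.01 for all genes.

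Of the 4 genes, Ighg3 (difference -3.58 ± 0.80, limma adjusted p = 0.00907) and Igkv7-33 (-4.63 ± 1.21, 0.0192) had low marrow values in both states and were lower in crisis spleen than in WT spleen. Igkv7-33 stood at 96.75, 195.3 and 136.8 in young WT spleen and at 9.14, 30.14 and 9.46 in crisis spleen. Its crisis spleens overlapped its crisis marrows, while its WT spleens lay above all of its marrows. The others were Ighv1-61 (-3.35 ± 1.02, limma adjusted p = 0.0379) and Igkv5-45 (-1.82 ± 0.59, 0.0491). Ighv1-61, 3.02-fold lower in crisis marrow and 30.9-fold in spleen, is 98.6% identical to Ighv1-52, which was 12.5-fold and 2.66-fold lower. Igkv5-45 (2.73-fold and 9.59-fold) is 96.9% identical to Igkv5-43, which had the same order (3.05-fold and 5.09-fold). Whether reads split between such relatives account for these differences was not tested. With the mouse as a block 8 members were called, and 25.9% of all genes. Without crisis bone marrow replicate 1 there were 12 (18.4% of all genes). Of these, 10 went the other way, with a more negative change in bone marrow. Those were 5.71% of the members tested, beside 5.74% of all genes in that direction.

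In young WT mice the spleen held more immunoglobulin RNA than the bone marrow. Of 177 members tested, 117 were higher and 1 was lower in spleen, where 30.1% of all 16376 genes were called and 16.3% were higher and 13.8% lower. The median log2 difference, spleen over marrow, was 1.53 for the members tested and 0.03 for all genes. For 141 members every WT spleen lay above every WT marrow (24.4% of all genes).

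Kappa and lambda V segments were higher in spleen in larger numbers than heavy V: 70 of 84 kappa V (median log2 difference 1.99) and 3 of 3 lambda V (2.48), against 39 of 82 heavy V (0.89). The difference between these classes was not tested. Of the constant genes, Ighm differed by 0.84 ± 0.15 (limma adjusted p = 0.00174), Igkc by 2.04 ± 0.14 (3.29e-06) and Iglc2 by 2.07 ± 0.18 (2.04e-05). Igkv1-110, at 248.4, 262 and 174.2 in the WT marrows against 2507, 3018 and 2834 in the spleens, differed 12.3-fold (3.62 ± 0.18, limma adjusted p = 6.92e-07). Ighv9-3, at 997.2, 831 and 703.4 against 1331, 1676 and 1598, differed by 0.87 ± 0.16 (0.00236). For both segments the tissues did not overlap, but marrow was far nearer to spleen for the heavy segment.

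As a single number per library, the heavy V sum over the kappa V sum, both per kb, was 1.56, 1.39 and 1.59 in young WT marrow (mean 1.52 ± 0.11, SD, n = 3) and 0.774, 0.767 and 0.668 in young WT spleen. In crisis it was 1.25, 0.895 and 1.01 in marrow (mean 1.05 ± 0.18, SD, n = 3) and 0.829, 0.796 and 0.846 in spleen. Every marrow lay above every spleen, and the crisis marrows lay below the young WT marrows. Remission marrows were at 1.19, 1.59 and 1.63 and older WT marrows at 1.10 and 1.18, so the remission and crisis marrows overlapped. These ratios are a description with no test.

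**Figure D3:**
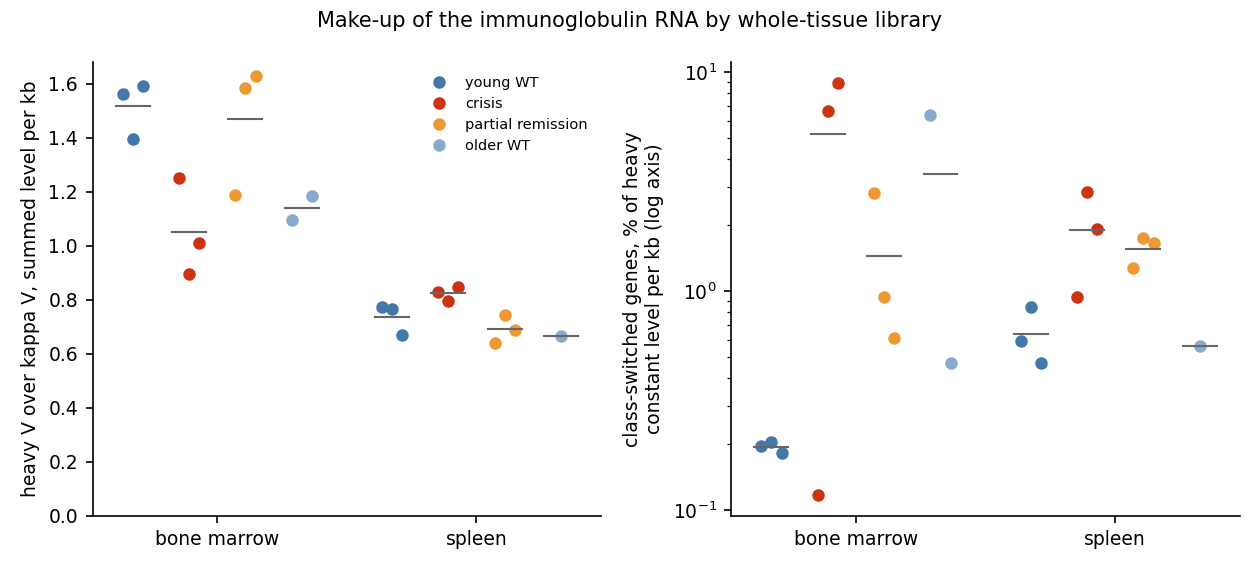
Heavy V over kappa V, both summed per kb, and the switched share of heavy constant transcripts in percent (log axis), for each assigned whole-tissue library by group; bars are group means. All bone marrow ratios lie above all spleen ratios, and crisis bone marrow replicates 2 and 3 reach switched shares of 6.65 and 8.90%.

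The genes of V(D)J recombination went the other way between the tissues: 8 of 13 were lower in young WT spleen and 0 higher (median log2 difference -2.14), among them Igll1 (-4.12, limma adjusted p = 1.23e-06), Dntt, which adds bases at V(D)J joints (-3.51, 1.28e-06), and Rag1 (-3.65, 0.00216). B cell genes were mixed, with 6 of 13 higher and 3 lower in spleen (median 0.15). Plasma cell and secretion genes were mixed too, with 6 of 14 higher and 3 lower in spleen (median 0.24). Jchain was among those higher (4.48, limma adjusted p = 2.32e-07). All 6 T cell genes were higher and all 5 neutrophil genes lower in spleen. The part of these differences in cell makeup in the immunoglobulin values was not tested.

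Of the 4 IgG constant genes, Ighg3 and Ighg2c were higher in spleen. Ighg3 stood at 17.21, 27.43 and 9.06 in the WT marrows and at 303.2, 533.2 and 659.1 in the spleens (4.78 ± 0.44, limma adjusted p = 2.81e-05). Ighg2c stood at 8.52, 11.21 and 3.85 against 270.5, 135.6 and 77.27 (4.11 ± 0.57, limma adjusted p = 0.000424). Ighg1 (4.91, limma adjusted p = 0.0841), Ighg2b (1.80, 0.161) and Igha (0.77, 0.0554) did not pass. Ighe was listed at 0 in every young WT and crisis marrow and was not tested between the young WT tissues. In crisis spleen it stood at 3.12, 72.93 and 16.16. Between the crisis tissues it thus passed the filter on low values through spleen alone. Its call there, counted below among the members higher in spleen, is not read as a result, and no fold is given against marrows at 0.

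Within the heavy locus the tissue difference varied with position. The 27 heavy V members farthest from Ighm (1514 to 2577 kb) had a median log2 difference of 0.61 with 6 higher and 1 lower, the 27 in the middle 0.97 with 14 higher, and the 28 nearest (155.8 to 730.5 kb) 1.08 with 19 higher. The far segments made up 18.7, 19.0 and 17.4% of the summed heavy V level in the WT marrows and 12.6, 10.5 and 11.0% in the WT spleens. Across the 82 heavy V members the tissue difference had a Pearson r of -0.37 with distance from Ighm and of 0.48 with log2 mean level, and across 84 kappa V members an r of -0.01 with distance from Igkc and of 0.39 with level. Members of a locus share libraries and neighbours are often of 1 family, so these correlations describe the segments and are not tests. Ighv1, the family of 40 members that fills the far part, had 11 higher and 1 lower (median 0.63), while Ighv3, of 4 members, had 4 higher (2.52).

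**Figure D4:**
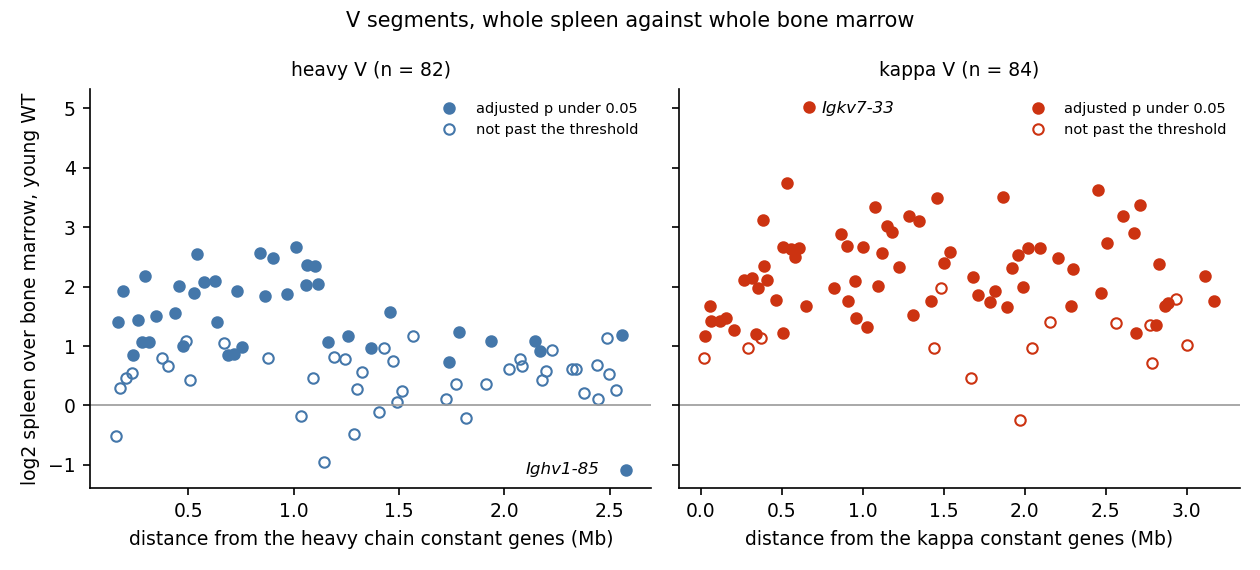
Log2 difference, spleen over bone marrow of young WT mice, of each heavy V (left) and kappa V (right) member against its distance in Mb from Ighm or Igkc; filled points have a limma adjusted p under 0.05. Heavy V points lie lower at larger distance, down to Ighv1-85 at -1.08, and kappa V points show no such slope.

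The segment at the far end of the heavy members, Ighv1-85, was the 1 member lower in spleen. It stood at 194.8, 319.2 and 199.1 in the young WT marrows and at 118.2, 124.7 and 87.45 in the spleens (log2 difference -1.08 ± 0.28, limma adjusted p = 0.0149). Every marrow was above every spleen. At the other extreme was Igkv7-33, at 3.6, 6.24 and 1.31 in marrow and 96.75, 195.3 and 136.8 in spleen (5.02, limma adjusted p = 0.000121).

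In crisis mice the share of members higher in spleen was near that of all genes, and 0 members were lower. Of 149 members tested 30 were higher and 0 lower in spleen than in marrow of the same mice, where 35.8% of all genes were called and 16.5% were higher and 19.3% lower. The median log2 difference was 1.45, and for 42 members every crisis spleen lay above every crisis marrow (25.7% of all genes). With the mouse as a block 58 were called, 57 of them higher and 1 lower, and 52.1% of all genes, 26.6% higher. Leaving out single libraries gave 7 to 69. There were 69 without bone marrow replicate 1 (46.6% of the members tested, beside 29% of all genes). Without bone marrow replicates 2 and 3 there were 12 and 13 (7.84 and 8.55%, beside 23.6 and 24.2%). Without spleen replicates 1 to 3 there were 18, 7 and 26 (12.3, 4.9 and 17.8%, beside 28.7, 23.8 and 36.5%). Igkv1-110 was higher in spleen (2.41 ± 0.46, limma adjusted p = 0.00575), at 340.3, 691.4 and 509.4 against 155.7, 49.68 and 99.42. Ighm was not called (1.10 ± 0.71, limma adjusted p = 0.262), and the marrow of mouse 2608 (74475) lay above all 3 crisis spleens.

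In partial remission the immunoglobulin values were higher than in crisis, but no member passed the test in either tissue. Remission and crisis were set in a fit of all 4 groups of a tissue, and this comparison shares its crisis libraries with the comparisons above. In bone marrow 0 of 163 members tested were called (0% of all 16154 genes), with 99 at an unadjusted p under 0.05 (15.9% of all genes), a median log2 change of 1.77 and 62 members with every remission marrow above every crisis marrow (9.57%). Without crisis replicate 1, 83 members were called, all higher, and 6.31% of all genes, 4.43% higher. In spleen 0 of 178 were called (0% of all 16117 genes), with 96 at an unadjusted p under 0.05 (20.2%), a median of 1.63 and 80 members without overlap (15.4%). Without remission spleen replicate 1 there were 7 called, 3.93% of the members beside 3.17% of all genes, and the median was 0.92.

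The remission spleens were unlike each other. Ighm stood at 329178, 63808 and 94206 in them (58, 33 and 32 days old), against 295976 in the older WT spleen (32 days). Replicate 1 lay above every WT spleen and the others lay above the crisis range of 36708 to 51651. The medians over the 178 genes, on the log2 scale against the young WT spleen mean, were 0.81, -1.72 and -1.27. Those of the B cell list were 0.48, -1.81 and -1.59, in the same order. Replicate 1 is mouse 2726, which is 58 days old like mouse 27265, whose labels contradict each other. Whether libraries of these 2 mice were exchanged was not tested.

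The remission marrows were closer together, with Ighm at 97691, 73464 and 114310 and medians of -0.14, -0.69 and -0.54 against young WT. The older WT marrows stood at 40764 and 108629, with medians of -1.45 and -0.08. Both older WT marrows and all remission marrows thus lay below the lowest young WT value of Ighm, 117410. Igha was above young WT in all 3 remission marrows, at 2570, 877.3 and 868.7, and at 2630 and 336.9 in the older WT marrows. Remission against crisis gave a log2 change of 1.72 ± 1.23 for Igha in marrow (limma adjusted p = 0.547).

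Against older WT, 0 members were called in either tissue (0% of all genes in both), and unadjusted p values under 0.05 were found for 0 of 163 members in bone marrow (1.1% of all genes) and 5 of 178 in spleen (0.757%). The median was 0.21 in bone marrow and turned to -0.66 without mice 2726 and 27265. In spleen it was -1.29. Without remission replicate 1 it was -2.07, and 93 members were called, all lower, beside 28.8% of all genes called and 14.3% lower. That value sets 2 remission spleens against the older WT spleen, which is 1 library, assumed to vary like the others.

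The shares of a pair of V segments, Igkv15-103 and Ighv7-1, changed strongly between libraries, and both were singled out after their values were seen. Igkv15-103 made up 3.10, 2.35 and 4.36% of the summed kappa V level in young WT marrow, 6.79, 3.62 and 24.5% in remission and 20.1 and 8.01% in older WT. Its level in the same marrows was 245.4, 172.1 and 254.1, then 519.6, 150.9 and 1288, then 766.3 and 632.3 rescaled counts. Remission replicate 3 and older WT replicate 1 stood out, each with over 20% of its kappa V level in this 1 segment. Ighv7-1 reached 10.9 and 11.8% of heavy V in the same 2 marrows. Across the 21 assigned whole-tissue libraries the shares of the 2 segments had a Pearson r of 0.93 and a Spearman rho of 0.88, within bone marrow 0.92 and 0.93 (n = 11) and within spleen 0.80 and 0.53 (n = 10), given as a description over libraries that share mice.

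In sorted progenitors, which are not antibody-making cells, young WT libraries held less immunoglobulin RNA than whole tissue of young WT mice. Their values are given as a description. The members summed to 13524 to 16613 rescaled counts in young WT bone marrow SMP and 17257 to 43477 in MEP, against 143925 to 174314 in whole marrow. Ighm took 80.6 to 85.3, 69.2 to 72.6 and 80.2 to 81.6% of those sums. The B cell list summed to 9716 to 12091 in young WT bone marrow SMP and 6710 to 22998 in MEP, against 123177 to 145482 in whole marrow. The list of V(D)J recombination and class switching was nearer to whole marrow. It summed to 18453 to 38793 in SMP and 15238 to 49159 in MEP, against 42763 to 47858. Whether B cells in the sort account for the immunoglobulin values was not tested.

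Ighv1-85 stood out among the heavy V segments of SMP. It was the highest heavy V segment in 11 of 11 bone marrow SMP libraries and 10 of 10 spleen SMP libraries, in 5 of 11 bone marrow MEP libraries and in 0 of the whole-tissue libraries. Its median share of the heavy V sum was 45.9% in bone marrow SMP (33.5 to 50.9%) and 44.3% in spleen SMP (12.2 to 50.8%). It was 18.1% in bone marrow MEP (1.64 to 21.4%), 1.79% in spleen MEP (0 to 7.84%), 2.11% in whole marrow (0.712 to 3.22%) and 0.417% in whole spleen (0.223 to 0.668%). Its level was also higher in SMP than in whole marrow, at 1050, 1453 and 960.3 rescaled counts in young WT bone marrow SMP. In crisis bone marrow SMP it stood at 1008, 283.1 and 123.9, with mouse 2608 again the highest, and at 49.2, 45.9 and 34.5% of heavy V. No difference between these groups was tested.

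**Figure D5:**
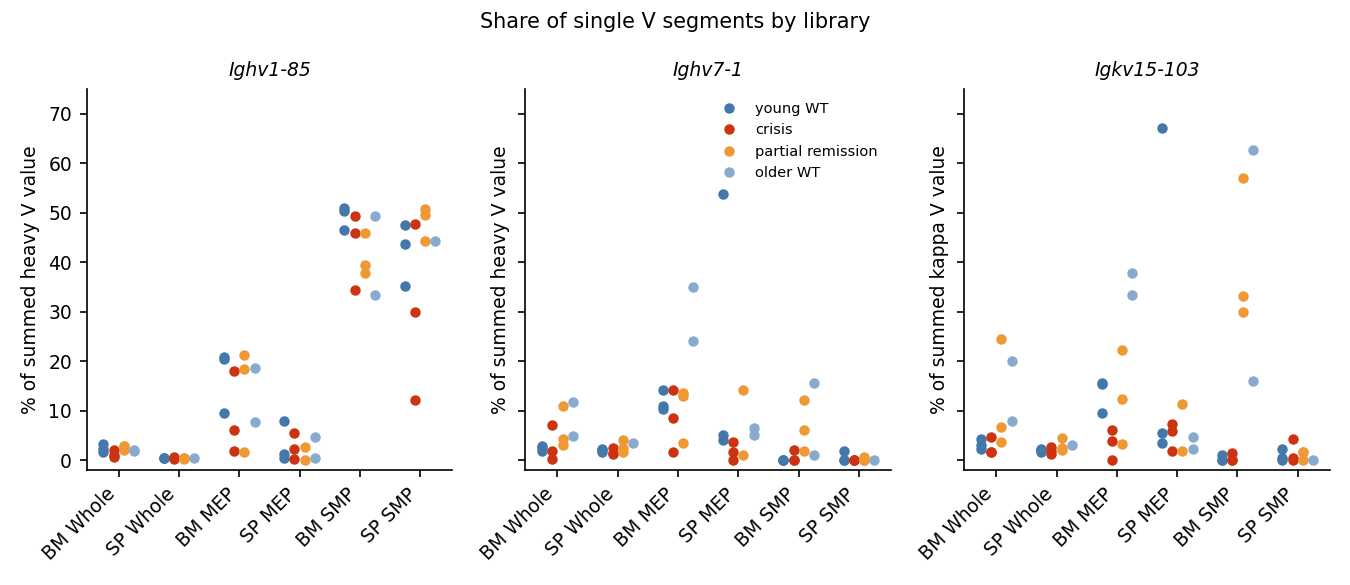
Share of Ighv1-85 and Ighv7-1 in the summed heavy V level, and of Igkv15-103 in the summed kappa V level, in percent, for each library of the 6 populations; points are libraries. Ighv1-85 takes 33.5 to 50.9% in bone marrow SMP and at most 3.22% in whole bone marrow.

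Single segments also led single MEP libraries. In spleen MEP of young WT replicate 3, Ighv7-1 held 53.8% of the heavy V level and Igkv15-103 67.1% of the kappa V level, at 2266 and 3311 rescaled counts. In bone marrow MEP of older WT replicate 1 they held 35.1 and 37.8%. The pair was thus high together in these MEP libraries, but not in all sorted libraries. In bone marrow SMP of remission replicate 2, Igkv15-103 held 33.1% of kappa V and Ighv7-1 1.885% of heavy V. In that of older WT replicate 2 they held 16.1 and 1.12%.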

How the data were processed

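The authors deposited a table of normalised counts, used here as a normalised signal per gene that is not whole reads, and a table of regularised log2 values. Per the submitters' processing notes, Bowtie2 2.2.0, RSEM, DESeq2 and GRCm38 were used, in an order and with parameters not given in the sources used here. Raw depth is unknown, and totals were 33.6 to 107.6 M normalised counts (median 50.64).

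Identifiers were matched to GENCODE M21, for 25607 of 26286 genes. Each library was divided by its median ratio over 12829 genes, values became log2(value + 1), and genes with a mean under 10 in the fitted libraries were dropped. The 9 comparisons were tested with limma 3.58.1 (R 4.3.3; trend, robust, two-sided, Benjamini-Hochberg over all genes). With 3 against 3 mice an exact permutation test cannot go below 0.1, so limma alone was used. Replicates are separate mice, of 1 strain and facility.

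Both tissues of a crisis mouse, and of 2 young WT mice, were sampled, so the mouse pairs the tissues, and a fit with the mouse as a random block (correlation -0.156 in young WT, 0.45 in crisis, 0.268 over both) is an alternative. The members and lists were chosen with earlier results of these data known. Named genes are the constant genes, the V segments with the highest means, the extremes among called members, those next to the limit of 10 and the list genes a result turns on. Genes named otherwise are said to be. Sequences and identity (1 minus edit distance over the longer length, edlib 1.3.9.post1) come from GENCODE M21 transcripts. Alternatives were the deposited scale, scaling per population, a pseudocount of 10, no filter, a limit of 50, regularised log2 values, all groups in the fit, the mouse block, and leaving out mice or single libraries. A gene of the B cell list is not reported here and is left out of its counts and sums.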

Additional observations from a re-analysis of the deposited data

Results flagged for a closer look

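In 4 members the crisis change differed between spleen and bone marrow by the test of the difference itself (limma, adjusted over all genes): Igkv7-33 by -4.63 on the log2 scale (1.42 in bone marrow, -3.21 in spleen), Ighg3 by -3.58 (0.54 and -3.05), Ighv1-61 by -3.35 (-1.59 and -4.95) and Igkv5-45 by -1.82 (-1.45 and -3.26). These 4 were 2.3% of the 174 members tested, where 18.3% of all genes were called and 12.4% in the same direction. Such a difference was thus called less often among the members than among all genes. Igkv5-45 stood at 403.4, 324.1 and 406.6 rescaled counts in young WT spleen and at 37.16, 38.54 and 39.2 in crisis spleen. In bone marrow it stood at 112, 116.7 and 50.69 in young WT and at 50.52, 32.74 and 18.56 in crisis.

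The whole spleen library of mouse 27265, in no comparison because its labels contradict those of the marrow of the same mouse, held 12005 rescaled counts of Igha, where the assigned spleens held 94.23 to 2207. The switched genes made up 8.08% of its heavy constant transcripts per kb, against 0.468 to 2.82% in the assigned spleens, and Igha was 69.9% of that switched part. Its Ighe value was 455.1, against at most 215.8 in the assigned spleens, and its Ighm value was 138145. The marrow of this mouse also had a high switched share, 6.38%.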

How the results depend on the processing

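Of 116 counts of members called under alternatives, 85 stayed within 1.5 times the count reported and 31 did not. In crisis bone marrow 29 members (18.2%, beside 9.52% of all genes) became 61 on the deposited scale (37.9%, beside 5.46%). They became 53 with a pseudocount of 10 (33.3%, beside 10.3%) and 56 with all 4 groups fitted (34.4%, beside 8.75%). With single libraries left out there were 0 to 130, with 0.789 to 19.2% of all genes called. In crisis spleen 153 (86.9%, beside 46.6%) became 89 with all 4 groups fitted (50%, beside 14.9%). With libraries left out there were 121 to 153, with 34.7 to 48.7% of all genes called. For remission against crisis in spleen the deposited scale gave 1 (0.562%, beside 0.0185% of all genes). Without mice 2726 and 27265, which in spleen leaves out remission replicate 1 alone, there were 7 (3.93%, beside 3.17%). Leaving out libraries gave 0 to 83 in bone marrow (all genes 0 to 6.31%) and 0 to 7 in spleen (all genes 0 to 3.17%). Against older WT it gave 0 to 0 in bone marrow and 0 to 93 in spleen, with 93 again without those mice. Between tissues it gave 101 to 120 in young WT (all genes 21.6 to 29.5%) and 7 to 69 in crisis (23.6 to 36.5%). For the difference of the crisis effect it gave 1 to 12 (all genes 11.8 to 24.1%). That comparison had 2 members on the deposited scale (4.92% of all genes) and 8 with a pseudocount of 10 (19.2%). With the mouse as a replicate block, 117 members were called between tissues in young WT (27.9% of all genes). In crisis there were 58 (52.1%), and for the difference 8 (25.9%). Of the log2 changes of named members, 1047 stayed called or stayed uncalled, 86 lost the call, 32 gained it and 1 reversed: Igha in crisis spleen, 1.03 without crisis replicate 1, and -0.56 without replicate 2. The sign turned in 37 more that were not called in either fit, among them Igha in crisis bone marrow, -0.25 without crisis replicate 3. The causes were not tested. Raw depth is unknown, so its limit was not assessed.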
